A study of Mus musculus with 768 samples.

Results

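Axon guidance ligands and receptors were examined in Schwann cells, the glia of peripheral nerve, at postnatal day 5. Members were the genes of the count table whose GENCODE vM21 symbol belonged to 1 of 9 families, the semaphorins of classes 3 to 7, plexins, neuropilins, Eph receptors, ephrins, Robo receptors, Slit ligands, Unc5 receptors and netrins. This gave 67 genes of 25700, made up of 34 ligands and 33 receptors. A further symbol of these families, Ntn3, had no row in the table. The cells came from sciatic nerves of mice on the C57BL/6J background that carried P0Cre, ReYFP and a beta-actin DsRed transgene. The Cre switches on eYFP in the Schwann cell lineage, and eYFP-positive cells were sorted singly into 2 plates of 384 wells for Smart-seq2, a full-length RNA protocol without molecular identifiers. All wells share this genotype and age, and there was no treatment. Each plate held a pool of cells of male and female mice and is 1 biological replicate, so that every test between states rested on n = 2 plates.

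Guidance molecules steer growing axons and migrating cells by attraction or repulsion. Most secreted class 3 semaphorins bind neuropilins, which signal through plexins, while membrane-bound semaphorins of classes 4 to 7 bind plexins directly. Ephrins are tethered to the membrane and are read by Eph receptor tyrosine kinases on the neighbouring cell, Slits are read by Robo receptors, and netrins by Dcc and Unc5 receptors. In peripheral nerve these systems are known from the migration of Schwann cells and from their contacts with axons and with each other.

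Wells were placed in states from 7 genes read in the same wells. A well was cycling when 3 of the mitotic genes Cdk1, Ccnb1, Top2a, Birc5 and Ube2c had 5 reads or more. Other wells were immature below 10 CPM of Ncmap (CPM are the reads of a gene scaled to a fixed total of reads), a gene of the myelin sheath, intermediate from that level on with Pmp22 below 30000 CPM, and myelinating at 30000 CPM of Pmp22 or more. Pmp22 codes for a major protein of compact myelin. Outside the 8 corner wells, 655 wells had at least 1500 detected genes. In plate 1 they comprised 24 cycling, 114 immature, 79 intermediate and 108 myelinating wells, and in plate 2 there were 22, 125, 70 and 113. Reads per well differed between states, with medians of 492318 and 414935 in immature wells of plates 1 and 2 and of 819462 and 719230 in myelinating wells, so that shares of wells were also computed at equal depth, with each of the 633 wells of 100000 reads or more thinned to that number (45 cycling, 228 immature, 141 intermediate and 219 myelinating wells). The labels of the states were checked against further markers. The summed level of 6 myelin genes was 4833 and 4939 CPM in the immature sums and 74624 and 73249 CPM in the myelinating sums, and that of 6 genes of immature Schwann cells went the other way, from 589 and 548 CPM to 8.48 and 13.7 CPM. The myelin level was mostly Mbp. The other list was mostly Ncam1 in the immature sums, with 462 and 425 CPM, and Gfap had no read there. Of the 655 wells, 640 had 3 or more of 6 general Schwann cell genes and 514 had 3 or more of the 6 myelin genes. Only 67 had 3 or more of the 6 genes of immature cells, fewer than the 239 immature wells. No well had 3 of 6 genes of fibroblast-like, endothelial, immune, mural, neuronal or skeletal muscle cells. Perineurial genes reached that number in 6 wells. Some of these other lists moved with the states. The fibroblast-like list, nearly all of it Col1a1, had 655 and 659 CPM in immature and 178 and 173 CPM in myelinating sums, with no read of Clec3b or Dpt. The mural list, mostly Pdgfrb, had 6.73 and 6.14 CPM against 47.4 and 53.2 CPM, with no read of Rgs5, Kcnj8, Abcc9 or Myh11. Their part in the results was not tested.

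Of the 67 members, 60 had at least 1 read in the retained wells and 7 had none, namely Epha3, Epha8, Epha10, Ntn4, Robo1, Robo3 and Sema4f. Levels are given as CPM of the reads summed per plate and state, scaled by TMM, a factor that evens out differences in composition between sums. In at least 1 state 32 members reached a mean of 10 CPM, and 6 members reached 100 CPM. A well counted as positive for a gene from 5 reads on. By this measure 27 members were found in 50 wells or more, and 6 members in 300 wells or more. A typical well held few members at a time, with medians of 6 members per immature well in both plates and of 9 and 10 per myelinating well. At equal depth these medians were 5 and 5 against 6 and 7.

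The order of the members was set per kilobase of exon (RPKM), as a mean over the 6 non-cycling sums. Sema3b, a secreted semaphorin, led with 131 RPKM, followed by Plxnb3, a plexin that binds Sema5a, with 23.8 RPKM, and Sema6d, a membrane semaphorin, with 17.7 RPKM. Efnb1, a B-type ephrin, had 15.4 RPKM and Ephb6, an Eph receptor without kinase activity, 12.9 RPKM. Efna2, an A-type ephrin, followed with 7.83 RPKM, Nrp2, a neuropilin, with 7.11 RPKM, the netrin Ntn5 with 6.01 RPKM and Epha5, a receptor of A-type ephrins, with 5.41 RPKM. With the longest transcript in place of all exons the same 10 members led, in another order. The Slit and Robo family members stood low, with 0.429 RPKM for Slit2 and 0.163 RPKM for Robo4, as did Unc5b with 0.232 RPKM. The exons of Ntn5 overlap those of Sec1, so that its reads cannot be assigned with certainty.

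**Figure D1:**
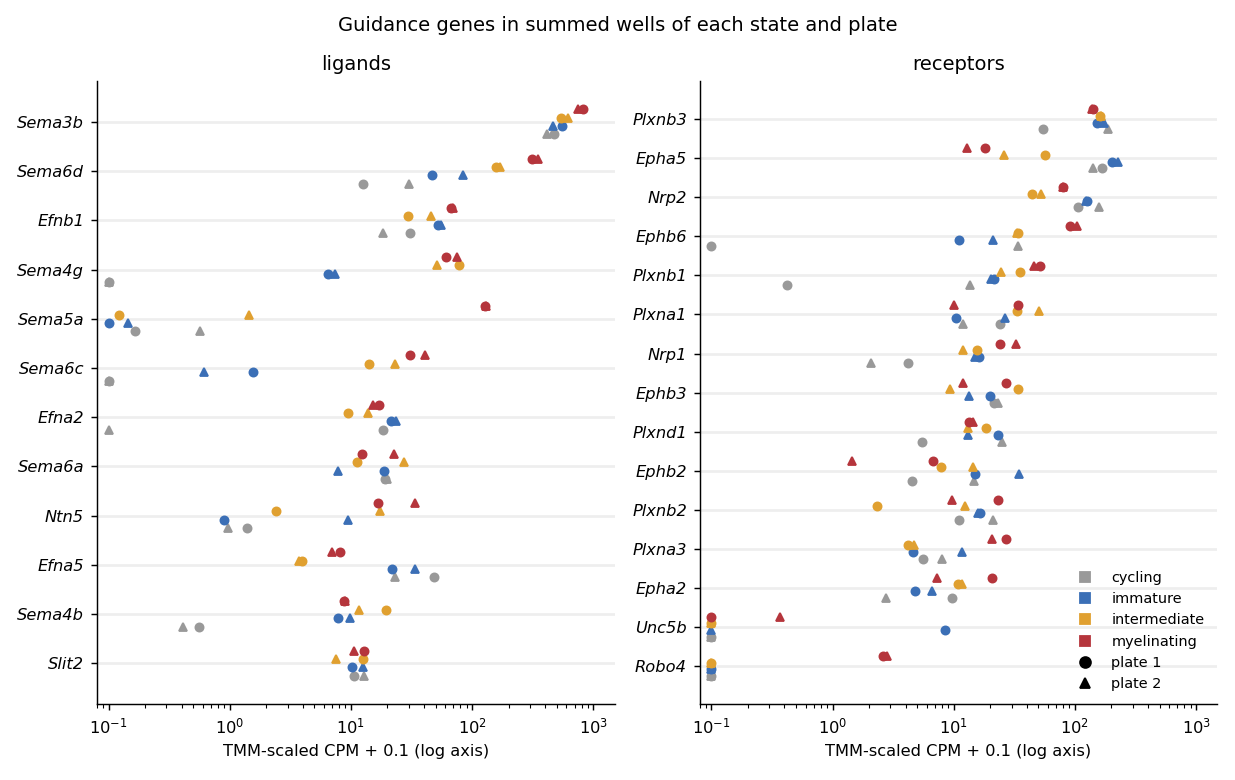
TMM-scaled CPM (plus 0.1, log axis) of the 27 members named by the rule, in the reads summed per state (colours) and plate (circle, plate 1, triangle, plate 2), ligands on the left and receptors on the right. Sema5a stands at 127 and 130 CPM in the myelinating sums and below 1.5 CPM in all others, whereas Plxnb3 lies between 139 and 173 CPM in all 6 non-cycling sums.

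The first comparison asked which guidance genes differ between myelinating and immature Schwann cells. The membrane-bound semaphorins Sema5a, Sema6d, Sema6c and Sema4g were higher in myelinating cells, and the ephrin receptor Epha5 was lower. These 5 were the members past an adjusted p of 0.05 among 53 tested (edgeR quasi-likelihood test, Benjamini-Hochberg over all 13914 genes counted), where 4.89% of all genes tested passed. Of all genes 2.41% were higher and 2.47% lower in the myelinating sums, against 4 members and 1 member. A gene passed the filter on low counts also when it was high in 1 state only, and such a gene had to differ, so the count over the 53 is a description. The median log2 change was 0.03 over the tested members and -0.05 over all genes tested. Without the TMM factors the median of all genes moved by -0.38 on the log2 scale and 25.4% of the calls over all genes were higher in myelinating sums in place of 49.4%. None of the 5 changes turned under the scalings tried. By class, 4 of 12 tested membrane semaphorins passed, 1 of 5 EphA receptors, and none of the 5 secreted semaphorins, 9 plexins, 2 neuropilins, 5 EphB receptors or 8 ephrins.

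Summed levels give the weight of each class. The 13 membrane semaphorins together had 116 and 138 CPM in the immature sums of plates 1 and 2, 284 and 308 CPM in the intermediate and 560 and 645 CPM in the myelinating sums. The groups did not overlap, and the myelinating level was 4.74 times the immature one, or 3.65 times without the TMM factors. The 9 EphA receptors had 222 and 254 CPM, 102 and 45.8 CPM and 58.7 and 41.5 CPM, most of it Epha5 in the immature sums. Without Epha5 the other 8 had 18.8 and 26.9 CPM in immature, 45.3 and 19.9 CPM in intermediate and 40.7 and 28.8 CPM in myelinating sums, so that the lower class sum came from Epha5. All ligands together had means of 819 and 1541 CPM in immature and myelinating sums, a ratio of 1.88, and all receptors had 708 and 554 CPM, a ratio of 0.783. The plexins as a class had means of 261, 261 and 266 CPM in immature, intermediate and myelinating sums, a myelinating to immature ratio of 1.02 that was 0.781 without the TMM factors. These sums are descriptions and were not tested.

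**Figure D2:**
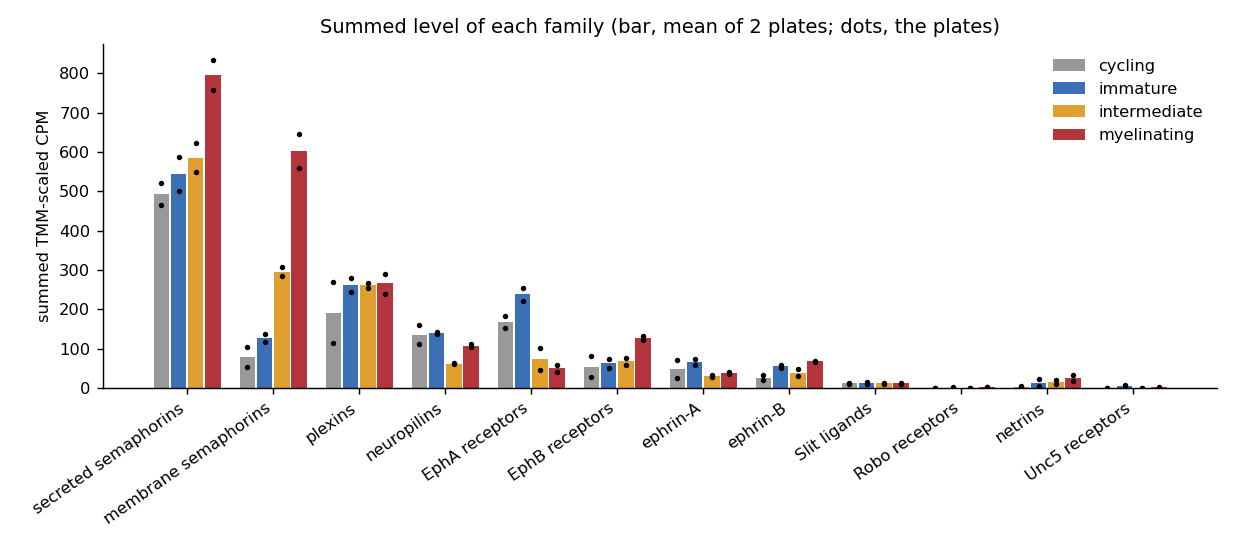
Summed TMM-scaled CPM of each family in the 4 states (bars, mean of the 2 plates; dots, the plates). Membrane semaphorins stand at 127 CPM in immature and 602 CPM in myelinating sums and EphA receptors, mostly Epha5 when immature, at 238 and 50.1 CPM. Heights of different families are not comparable per length.

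These 5 genes lie on different chromosomes. In GENCODE vM21 (GRCm38) Sema5a is at chr15:32244810-32696341 on the plus strand, Sema6d at chr2:124089969-124667770 (plus), Sema6c at chr3:95160457-95174024 (plus), Sema4g at chr19:44989101-45003397 (plus) and Epha5 at chr5:84054761-84417382 (minus). Their exons overlap those of no other gene in the table. The 250 bases upstream of the RefSeq start (GRCm38.p6) are shown for the called members whose window reaches at most 3 bases into the annotated gene, since they are the sequence in which a shared feature could be sought. The windows are chr15:32244563-32244812 (plus), chr2:124089719-124089968 (plus, the first of 2 starts), chr3:95160170-95160419 (plus, the first of 2 starts) and chr5:84417383-84417632 (minus), and capitals mark a match to a searched motif.
Sema5a: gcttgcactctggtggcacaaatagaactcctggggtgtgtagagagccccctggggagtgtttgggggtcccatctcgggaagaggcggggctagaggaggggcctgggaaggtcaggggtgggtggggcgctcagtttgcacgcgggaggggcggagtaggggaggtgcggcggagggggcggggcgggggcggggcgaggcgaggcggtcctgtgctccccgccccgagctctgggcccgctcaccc
Sema6d: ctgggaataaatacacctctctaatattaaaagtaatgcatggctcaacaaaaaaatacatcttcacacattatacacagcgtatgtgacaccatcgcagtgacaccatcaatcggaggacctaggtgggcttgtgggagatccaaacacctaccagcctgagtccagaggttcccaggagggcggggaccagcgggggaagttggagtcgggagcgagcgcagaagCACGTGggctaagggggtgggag
Sema6c: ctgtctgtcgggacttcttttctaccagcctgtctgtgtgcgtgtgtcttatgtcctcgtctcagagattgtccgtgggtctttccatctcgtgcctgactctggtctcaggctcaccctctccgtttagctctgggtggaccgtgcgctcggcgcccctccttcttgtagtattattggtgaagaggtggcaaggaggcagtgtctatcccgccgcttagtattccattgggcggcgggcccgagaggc
Epha5: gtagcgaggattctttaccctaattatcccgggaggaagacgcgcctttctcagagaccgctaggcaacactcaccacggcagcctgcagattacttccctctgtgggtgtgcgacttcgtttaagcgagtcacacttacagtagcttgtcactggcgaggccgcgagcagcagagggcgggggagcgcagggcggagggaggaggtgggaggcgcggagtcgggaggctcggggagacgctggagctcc
The motifs searched were 4, on both strands, the Sox core ACAAAG, the EGR core GCGTGGG, the TEAD core GGAATG and the E-box CACGTG. The only match in these windows was the E-box at position -23 of Sema6d, counted from the start. Over 27025 genes with a window, 16.5% held the Sox core, 4.2% the EGR core, 12.6% the TEAD core and 6.05% the E-box, and among the 58 members with a window the shares were 10.3%, 13.8%, 10.3% and 5.17%. G and C made up 72% of the window of Sema5a, 52.4% of Sema6d, 57.6% of Sema6c and 62.4% of Epha5. The median was 64.6% over the members and 52% over all genes.

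Sema5a, a membrane semaphorin with thrombospondin repeats, had the largest fitted change of the 5. It gave 0 and 3 reads in the immature sums and 127 and 130 CPM in the myelinating sums, with 0.0213 and 1.33 CPM in between in the intermediate sums. The myelinating values lay close together (129 CPM ± 2.40, SD, n = 2 plates) and far above all others. From the reads the fold over immature was 5743, with a counting interval of 1965 to 27849 that comes from the 3 immature reads (adjusted p = 0.00999, edgeR, fitted log2 change 12.35 ± 2.01 SE). No immature well of 239 reached 5 reads, which allows a share of up to 1.26%. In the myelinating state 48 of 108 wells of plate 1 were positive, or 44.4% (exact 95% interval 34.9 to 54.3), and 56 of 113 of plate 2, or 49.6% (40.0 to 59.1). At equal depth the myelinating share was 37.7% ± 7.98 (SD, n = 2 plates).

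Sema6d, which binds plexins of the A type, was higher in myelinating cells. Its level was 46.5 and 83.8 CPM in the immature sums, 157 and 171 CPM in the intermediate and 313 and 352 CPM in the myelinating sums. Each state lay above the one before it in both plates. The log2 change from immature to myelinating was 2.35 ± 0.44 (SE, adjusted p = 0.0183, edgeR). The share of positive wells went from 29.7% ± 12.3 over 58.9% ± 11.7 to 88.1% ± 6.78 (SD, n = 2 plates), and at equal depth from 26.3% over 52.7% to 82.4%. It was thus already found in a share of the immature wells.

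Sema6c, of the same class as Sema6d, was low in immature sums with 1.46 and 0.512 CPM. It reached 14.1 and 23.1 CPM in the intermediate sums and 30.8 and 41.1 CPM in the myelinating sums, and the groups did not overlap. The log2 change to the myelinating state was 5.19 ± 0.98 (SE, adjusted p = 0.0257, edgeR), and with the plate as a replicate block the adjusted p was 0.0572 and the call was lost. Positive wells made up 1.68%, 17.7% and 50.1% of immature, intermediate and myelinating wells, and 0.420%, 10% and 27.3% at equal depth. Single wells held 90.6% and 68.6% of the immature reads of plates 1 and 2, and without the top wells the change was 7.75 (adjusted p = 0.0102, edgeR).

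Sema4g, a class 4 semaphorin, had 6.35 and 7.27 CPM in the immature sums, 78.5 and 51.2 CPM in the intermediate and 60.8 and 75 CPM in the myelinating sums. Its intermediate and myelinating sums overlapped, and both lay above the immature ones. The log2 change from immature to myelinating was 3.32 ± 0.49 (SE, adjusted p = 0.00920, edgeR). Single wells held 88.0% and 73.2% of the immature reads of plates 1 and 2. Shares of positive wells were 3.35% ± 0.218, 25.7% ± 4.09 and 46.9% ± 8.74 (SD, n = 2 plates), and 2.22%, 21.3% and 29.6% at equal depth. A single well gave 40.8% of its reads in the intermediate sum of plate 1. With 30 wells left out that held the most reads of a called member in a sum, the change to the myelinating state was 5.44 (adjusted p = 0.00723, edgeR) and that to the intermediate state 5.01 (adjusted p = 0.0209).

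**Figure D3:**
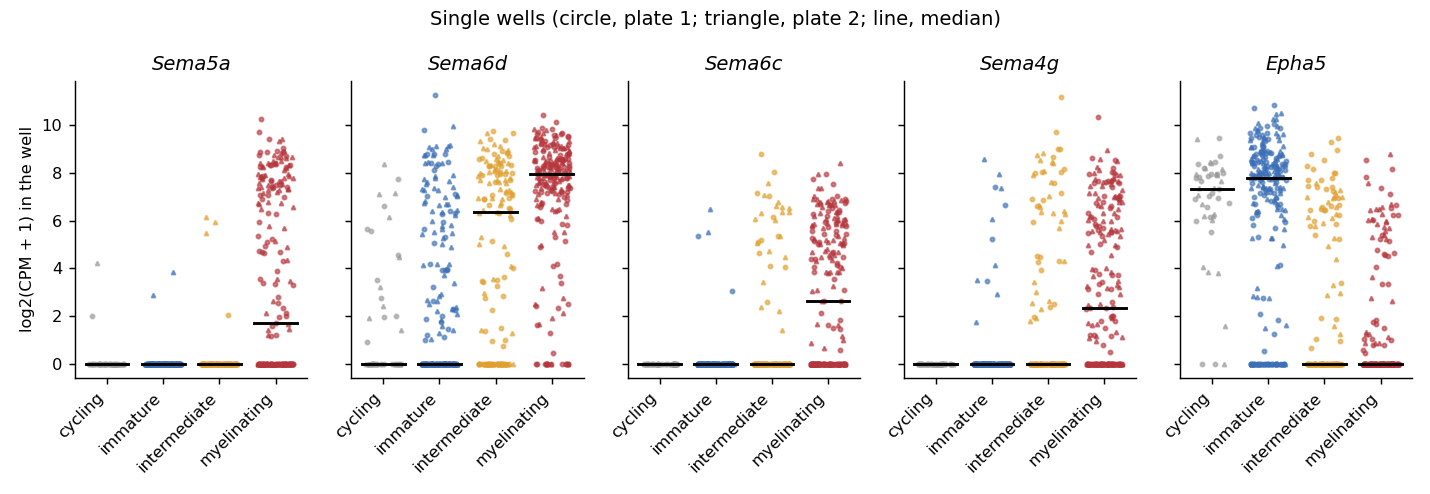
log2(CPM + 1) in each of the 655 retained wells for the 5 members called between myelinating and immature cells (circle, plate 1; triangle, plate 2; line, median of the wells), by state. In the immature state 2 wells hold a Sema5a read and most hold Epha5, while in the myelinating state most wells hold Sema6d.

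Epha5 was the only receptor past the threshold. It had 203 and 227 CPM in the immature sums, 56.3 and 26.0 CPM in the intermediate and 17.9 and 12.8 CPM in the myelinating sums. Each step lay below the one before it in both plates. The log2 change from immature to myelinating was -3.81 ± 0.41 (SE, adjusted p = 0.00123, edgeR), the smallest adjusted p among the members in this comparison. Positive wells made up 76.4% ± 3.90 of immature, 34.5% ± 8.44 of intermediate and 19% ± 0.608 of myelinating wells (SD, n = 2 plates), although the myelinating wells were the most deeply read, and at equal depth the shares were 74.5%, 26.8% and 10.4%.

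The other Eph receptors and the ephrins did not pass the test. Ephb6 had 10.9 and 20.9 CPM in immature and 91.2 and 103 CPM in myelinating sums, which did not overlap. The change missed the threshold (log2 change 2.61 ± 1.6 SE, adjusted p = 0.519, edgeR). As for every member, this SE comes from a fit over the sums of all states, cycling ones included. Ephb6 had 0 and 33.5 CPM in the cycling sums. A fit without the cycling sums was also made, and its SE for Ephb6 is not given here. Positive wells of Ephb6 made up 11.2%, 21.7% and 57.4% of the 3 states, and 7.37%, 14.9% and 42.8% at equal depth. Ephb2, a receptor of B-type ephrins, had 15 and 34.6 CPM against 6.64 and 1.34 CPM (log2 change -2.64 ± 1.10 SE, adjusted p = 0.284). Epha2 had 4.7 and 6.46 CPM against 20.6 and 7.13 CPM (1.31 ± 1.01 SE). Ephb3 had 26.8 and 11.8 CPM in the myelinating sums, which overlapped the immature ones.

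Among the ephrins, Efna5, a ligand of EphA receptors, had 21.7 and 33.6 CPM in immature, 3.84 and 3.62 CPM in intermediate and 8.01 and 6.85 CPM in myelinating sums. The groups did not overlap, and the log2 change to the myelinating state was -1.89 ± 0.65 (SE, adjusted p = 0.184, edgeR). Efna2 had 21.5 and 23.5 CPM against 16.9 and 15.2 CPM (-0.49 ± 1.61 SE). Efnb1, the ligand of EphB receptors, had 51.7 and 55.1 CPM in immature and 67.1 and 69.3 CPM in myelinating sums (0.35 ± 0.41 SE, adjusted p = 0.818). Without the TMM factors the summed level of the 3 B-type ephrins turned from 1.24 to 0.955 times the immature level, so no direction can be given for them.

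Of the secreted semaphorins, Sema3b was found in most wells of every state. It had 555 and 467 CPM in immature, 543 and 615 CPM in intermediate and 823 and 754 CPM in myelinating sums. The myelinating sums lay above all others, but the change missed the threshold (log2 change 0.63 ± 0.16 SE, adjusted p = 0.0698, edgeR). It was called by DESeq2, and by edgeR with thinned wells, with the Pmp22 limit at 40000 CPM, without a filter and without the cycling sums. The change also depended on the scaling. The summed level of the secreted semaphorins, nearly all Sema3b, was 1.46 times the immature one in myelinating sums and 1.12 times without the TMM factors. Wells positive for Sema3b made up 83.6% ± 1.66, 89.5% ± 6.70 and 99.5% ± 0.655 of the 3 states (SD, n = 2 plates). Sema3c and Sema3e, chosen for naming after their values were seen, stood on the opposite side. Sema3c had 20.7 and 24 CPM in immature and 5.62 and 2.38 CPM in myelinating sums (-2.48 ± 1.40 SE, adjusted p = 0.470), and Sema3e had 621 reads in the immature and 3 reads in the myelinating sums, a ratio of 245 with a counting interval of 83.8 to 1188 (adjusted p = 0.141).

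The neuropilins are receptors of most class 3 semaphorins. Nrp2 had 126 and 123 CPM in immature, 44.2 and 52.8 CPM in intermediate and 79.3 and 79.6 CPM in myelinating sums. The intermediate wells were thus the lowest in both plates. The change from immature to intermediate was -1.36 ± 0.28 on the log2 scale (SE, adjusted p = 0.0525, edgeR), which missed the threshold, and that from immature to myelinating was -0.65 ± 0.27 (adjusted p = 0.292). Nrp1 had 16.1 and 14.9 CPM in immature and 23.9 and 32.4 CPM in myelinating sums (0.86 ± 0.69 SE, adjusted p = 0.671).

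The plexins gave no call. Plxnb3 had 151 and 173 CPM in immature, 160 and 163 CPM in intermediate and 141 and 139 CPM in myelinating sums (log2 change -0.21 ± 0.47 SE, adjusted p = 0.935, edgeR). The 6 sums lay between 139 and 173 CPM, and its positive wells made up 52.8%, 56.1% and 53.8% of the states at equal depth. Plxnb1, a receptor of class 4 semaphorins, had 21.2 and 20.3 CPM against 51.3 and 45.8 CPM (1.23 ± 1.14 SE, adjusted p = 0.741). Plxna3, a co-receptor of neuropilins, had 4.5 and 11.7 CPM against 26.9 and 20.7 CPM (1.55 ± 0.85 SE, adjusted p = 0.454). Plxna1 had 10.4 and 26.3 CPM against 34.0 and 9.96 CPM, so that its plates disagreed in direction. Plxnb2 and Plxnd1 lay between 2.22 and 23 CPM in all 6 non-cycling sums.

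Of the 9 other membrane semaphorins, 8 were tested and did not pass, and Sema4f had no read. Sema6a had 18.6 and 7.66 CPM in immature and 12.2 and 22.7 CPM in myelinating sums, which overlapped. Sema4b had 7.72 and 9.71 CPM against 8.61 and 8.88 CPM, and was highest in the intermediate sums with 19.5 and 11.5 CPM. At equal depth single wells held 50% and 53.7% of its intermediate reads in plates 1 and 2. Its positive wells then made up 4.36% of immature, 7.10% of intermediate and 4.54% of myelinating wells. Sema5b, named after its values were seen, had 21 and 19 CPM against 0.0119 and 3.62 CPM, which did not overlap (log2 change -3.46 ± 2.19 SE, adjusted p = 0.533, edgeR).

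No Slit, Robo, netrin or Unc5 gene passed between myelinating and immature cells. Slit2, the ligand of Robo receptors, had 10.2 and 12.4 CPM in immature and 12.6 and 10.5 CPM in myelinating sums (log2 change 0.03 ± 0.77 SE, adjusted p = 0.998, edgeR), with 16.7% ± 3.95 of myelinating wells positive. Its main receptors could not be read beside it, since Robo1 had no read and Robo2 was found in 1 well. Robo4, a receptor best known from endothelium, had 412 reads in the myelinating sums, from 5 wells, and none in the immature. Against a floor of 3 reads over both immature sums this was at least 116-fold higher (adjusted p = 0.252, edgeR). The floor covers counting error only, and at equal depth 1 myelinating well of each plate was positive. The endothelial genes Pecam1, Cdh5, Tie1 and Emcn had no read in any retained well, while the summed level of the 6 endothelial genes, mostly Egfl7, was 22.9 and 32.1 CPM in immature and 145 and 112 CPM in myelinating sums. Kdr, also of this list, had no read in the immature sums and 19.3 and 20.8 CPM in the myelinating ones. The part of this list in the Robo4 reads was not tested. Ntn5 had 0.805 and 9.42 CPM against 16.6 and 33.4 CPM (2.29 ± 1.37 SE, adjusted p = 0.504), and Unc5b, a netrin receptor, had 8.43 CPM in immature plate 1 and none in plate 2, in 2 wells in all.

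**Figure D4:**
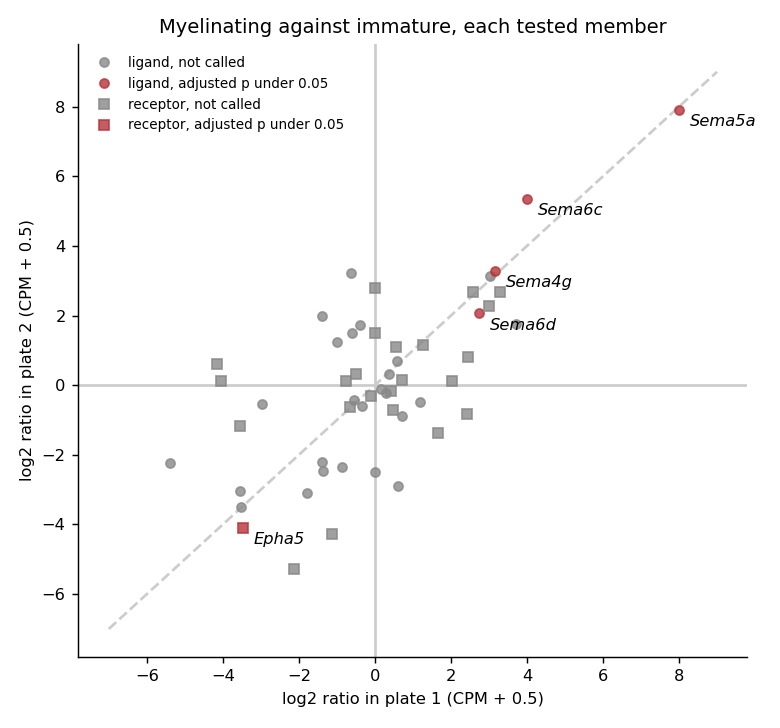
log2 ratio of myelinating over immature sums (CPM + 0.5 on both sides) in plate 1 (x axis) and plate 2 (y axis) for the 53 tested members, ligands as circles and receptors as squares, called members in red. The 5 called members lie near the diagonal, with Sema5a at 7.99 and 7.91 and Epha5 at -3.47 and -4.10, and members with opposite signs in the plates were not called.

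The second comparison set intermediate against immature wells. Sema4g was higher by 3.25 ± 0.49 on the log2 scale (SE, adjusted p = 0.0213, edgeR), and Epha5 lower, by -2.39 ± 0.39 (adjusted p = 0.0215). These 2 of the 53 tested members stand beside 1.80% of all genes called, of which 0.805% were higher and 0.992% lower in the intermediate sums. DESeq2 called 9 members, among them Sema6c, Sema6d, Nrp2 and Efna5, beside 6.79% of all genes. The Sema4g call was lost when the Pmp22 limit was set at 20000 CPM (adjusted p = 0.103). Sema6c (4.23 ± 0.94 SE, adjusted p = 0.0841) and Sema6d (1.33 ± 0.42 SE, adjusted p = 0.235) did not pass.

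Between myelinating and intermediate wells no member passed with edgeR, beside 0.676% of all genes. At an unadjusted p under 0.05 there were 7 members, Sema5a, Epha5, Sema3b, Plxna3, Nrp2, Robo4 and Sema6d, beside 9.16% of all genes. DESeq2 called 4 members, Epha5, Plxna3, Sema5a and Unc5b, beside 4.86% of all genes. Of these, Unc5b had no read in the intermediate sums and 0 and 20 reads in the myelinating sums of plates 1 and 2, so its call rests on few reads of 1 plate. Sema5a had a fitted change of 7.57 ± 1.61 on the log2 scale (SE, adjusted p = 0.106). Sema4g had a log2 change of 0.07 ± 0.45 SE. In the first comparison DESeq2 called 9 members, the 5 above and Efna3, Efna5, Sema3b and Sema3e, beside 11.6% of all genes. The comparisons share their sums, so their values are not independent of each other.

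Cycling cells were compared with immature ones. The cycling wells were set apart by the mitotic genes and had no limit on Ncmap, whereas the immature wells lay below 10 CPM of it. Sema4g had no read in the 2 cycling sums against 418 and 497 reads in the immature ones, at least 64-fold lower against a floor of 3 reads over the group (adjusted p = 0.00251, edgeR). It was the only member called, beside 3.41% of all genes, while DESeq2 called 8 members beside 11.9%. None of 46 cycling wells had 5 reads of Sema4g, which allows a share of up to 6.52%, and 3.35% of immature wells did, so the shares do not set the states apart at this depth. The immature Sema4g reads came mostly from a single well in each plate. Epha5 was high in cycling cells too, with 166 and 140 CPM and 91.3% ± 0.536 of wells positive (SD, n = 2 plates). Sema6d had 12.5 and 30.3 CPM in the cycling sums, the lowest of the 4 states in both plates, with a log2 change of -1.61 ± 0.43 SE against immature (adjusted p = 0.0926). Sema6c had no read in the cycling sums and 131 in the immature ones, at least 9.16-fold lower against the same floor (adjusted p = 0.0504, edgeR). That floor covers counting error only, and a single well of each plate held most of these immature reads. Of 239 immature wells 4, or 1.67%, had 5 reads of Sema6c, under the 6.52% that its absence from the cycling wells allows. Its shares thus do not set the states apart either. Sema4b had 11 reads against 1172 (log2 change -4.49 ± 1.04 SE, adjusted p = 0.0588). Nrp1 (-2.36 ± 0.73 SE, adjusted p = 0.141) and Efnb1 (-1.12 ± 0.41 SE, adjusted p = 0.221) were lower in both plates and did not pass.

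The wells from 10 CPM of Ncmap on can also be ordered by their Pmp22 level, which the state rule used, so the following is a description. All wells were thinned to 100000 reads. Sema5a was found in 0 of 61 wells below 10000 CPM of Pmp22, in 2.5% (exact 95% interval 0.304 to 8.74) of 80 wells from 10000 to 30000 CPM, in 14.1% (7.74 to 23) of 92 wells from 30000 to 60000 CPM and in 55.1% (46.0 to 63.9) of 127 wells from there on. Its share thus also differed within the myelinating wells. Sema6d went from 39.3% over 62.5% and 80.4% to 84.3%, and Sema6c from 6.56% over 12.5% and 21.7% to 31.5%. Sema4g reached 31.2% in the second group and stood at 31.5% and 28.3% after it. Epha5 was found in 74.6% of immature wells and in 31.1%, 23.8%, 14.1% and 7.87% of the 4 groups. Its drop thus lay mostly between the immature wells and the lowest Pmp22 group.

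**Figure D5:**
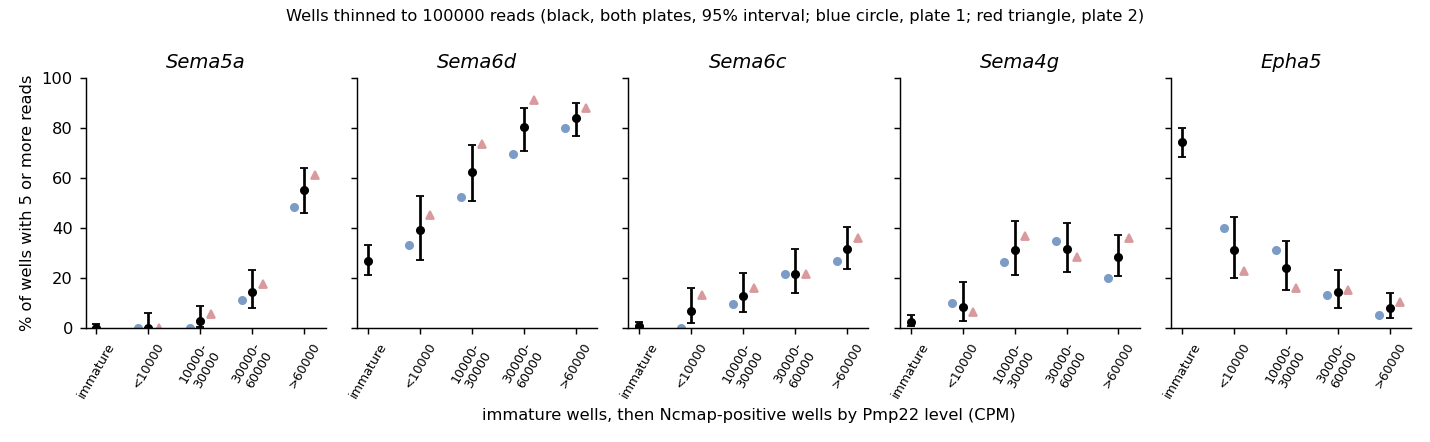
Percent of wells with 5 or more reads after thinning to 100000 reads, in immature wells and in Ncmap-positive wells grouped by Pmp22 level in CPM (black, both plates with exact 95% intervals of counting error; blue circles, plate 1; red triangles, plate 2). Sema5a stands at 55.1% in the highest group and at 0 in the lowest, Sema6d at 84.3% and 39.3%, and Epha5 at 7.87% and 31.1% beside 74.6% in immature wells.

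The called semaphorins were set side by side within myelinating wells. Among 219 thinned myelinating wells, Sema4g was found in 36.1% of the 83 wells with Sema5a and in 25.7% of those without, and Sema6c in 25.3% and 28.7%. For Sema6d these shares were 85.5% and 80.9%. Sema6c was found in 26.2% of the 65 wells with Sema4g and in 27.9% of the others. At this equal depth the wells still share a plate, and no test was made over wells.

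Whether a ligand and its receptor occur in the same well was described for 24 of 81 listed pairs, those in which both reached a mean of 10 CPM in some state. Sema3b and Nrp2 were found together in 103 of 239 immature wells, or 43.1% (exact 95% interval 36.7 to 49.6), in 40 of 149 intermediate wells, or 26.8% (19.9 to 34.7), and in 111 of 221 myelinating wells, or 50.2% (43.4 to 57.0). In plates 1 and 2 the immature shares were 32.5% and 52.8% and the myelinating ones 52.8% and 47.8%, so that the plates disagreed in order. The intervals pool the wells of both plates and cover counting error only. At equal depth the shares over both plates were 36.0% in immature and 34.2% in myelinating wells. The product of the separate shares of the 2 genes was 43.1%, 25.8% and 50% in the 3 states. Sema3b was found in 83.7%, 89.3% and 99.5% of the wells, so the joint shares largely followed those of Nrp2, with 51.5%, 28.9% and 50.2%. The closeness of product and joint share therefore says little about this pair. Sema5a and Plxnb3 were found together in 82 of 221 myelinating wells, or 37.1% (30.7 to 43.8), beside a product of 34.5%, and in 20.5% at equal depth. Efna5 and Epha5 shared 31 of 239 immature wells, or 13% (8.99 to 17.9), beside a product of 13.8%. They shared 13 of 46 cycling wells, or 28.3% (16 to 43.5), where the separate shares were 32.6% for Efna5 and 91.3% for Epha5. Efnb1 and Ephb3 shared 9.5% of myelinating wells. A sorted well says nothing of the neighbours of that cell in the nerve.

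Partners and downstream genes of the pathway were read from lists. Of 15 partner genes, such as Dcc, Neo1 and the adhesion molecules of the L1 family, 11 were tested and 1 passed between myelinating and immature cells, beside 4.89% of all genes. This was Chl1, an L1 family member that acts as a co-receptor, which had 46.0 and 45.2 CPM in immature sums, 0.235 and 19.9 CPM in intermediate and 0.0477 and 0.120 CPM in myelinating sums (log2 change -9.05 ± 1.91 SE, adjusted p = 0.0318, edgeR). Its level thus ran the same way as that of Epha5. Of 51 genes that carry guidance signals to the cytoskeleton, 46 were tested, 4 were higher and 2 lower, beside 2.41% and 2.47% of all genes. Chn2, a chimaerin that turns off Rac, had no read in the immature sums and 59.4 and 68.2 CPM in the myelinating sums. This was at least 2842-fold higher against a floor of 3 reads (adjusted p = 0.0172, edgeR). As among the members, a gene high in 1 state only passed the filter on low counts and had to differ. The count over the 46 is thus a description. Dpysl2, a collapsin response mediator that binds tubulin, had 511 and 507 CPM against 1173 and 1072 CPM (log2 change 1.14 ± 0.14 SE, adjusted p = 0.00265). Fyn, a Src family kinase, had 44.4 and 55.7 CPM in immature, 190 and 198 CPM in intermediate and 136 and 138 CPM in myelinating sums (1.46 ± 0.27 SE, adjusted p = 0.0195). Cdc42, a small GTPase that acts on the actin cytoskeleton, was higher (0.84 ± 0.13 SE, adjusted p = 0.00889) and Cfl1, the actin-severing cofilin, was lower (-0.52 ± 0.12 SE, adjusted p = 0.0427). The sixth gene called, Ablim1, lies under the level set for giving values. In the other comparisons Fyn was called between intermediate and immature cells, 2.17% of the 46 beside 1.80% of all genes. Dpysl2 was called between myelinating and intermediate cells, 2.17% beside 0.676%. No gene of either list was called between cycling and immature cells, beside 3.41% of all genes.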

How the data were processed

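RNA was measured in 768 sorted wells. The authors deposited raw read counts per gene and well. Per the labels' processing notes, STAR 2.6.1c and featureCounts were used with GRCm38.p5, whereas the methods of the study name a human build. Symbols came from GENCODE vM21, which lacked 36 of 25700 identifiers. Raw counts were summed per plate and state and fitted with edgeR 4.0.16 in R 4.3.3 (quasi-likelihood, TMM, filterByExpr, 13921 genes, 4 residual degrees of freedom, common dispersion 0.721), and Benjamini-Hochberg adjustment ran over all genes. The 7 genes that define the states were left out of counts. DESeq2 1.42.0 was an alternative, and the script was tested on simulated data. Plate 1 held 226050990 reads and plate 2 held 203322077. Reads are not molecules, so exact binomial intervals and floors of 3 counts cover counting error only. No doublet caller was run, and 0 pairs of wells were identical. Sums of 1 plate share animals, so the plate pairs them, although deviations correlated weakly (r from -0.0659 to 0.150 over 6 pairs of states). For ratios within a plate 0.5 CPM was added to both sides. Named members were those called, those with a mean of 10 CPM or more over the non-cycling sums, and the highest of each family per length. Genes of the partner lists were named where called with that mean. Members and lists were chosen with earlier results of these data known. RefSeq promoter sequences are of GRCm38.p6.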

Additional observations from a re-analysis of the deposited data

Results flagged for a closer look

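Reads of the guidance genes were also present in wells outside the comparisons. In the 105 wells with fewer than 1500 genes, 20 members had over 3 reads, the most a count of 0 allows. These wells held 3104 member reads of 7279040, led by Epha5 with 1514, Sema3b with 517 and Nrp2 with 191 reads. In the 8 corner wells 4 members had over 3 reads, and the wells held 51 member reads of 158513, of which Efna1 had 16 and Plxnc1 14. The members summed to 426 CPM in the first set and 322 in the corner wells, against 1662 in the retained wells. The source of these reads was not tested.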

How the results depend on the processing

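Each comparison was refitted under up to 16 alternatives, 3 of which were chosen after seeing the data (without plate columns 8 and 16, without 6 wells with perineurial genes, and without the top well of each called member). None of the 143 values of named changes was of opposite sign. Epha5, Sema4g, Sema5a and Sema6d kept the threshold between myelinating and immature cells under all 16 (adjusted p up to 0.0307), and Sema6c under 15. The number of members called is given with the percent of all genes called under the same alternative. Between myelinating and immature cells 5 members (4.89%) became 9 with DESeq2 (11.6%), 7 without the cycling sums (8.67%), 6 with thinned wells (7.76%), the Pmp22 limit at 40000 CPM (5.19%) or no filter (6.44%), and 4 with the plate block (4.36%). Between intermediate and immature cells 2 (1.80%) became 9 with DESeq2 (6.79%), 6 without a filter (3.44%) or the cycling sums (3.82%), 4 with thinned wells (3.57%) or without the top wells (1.81%), 3 with library sizes only (1.79%), and 1 with the Pmp22 limit at 20000 CPM (1.32%). Between myelinating and intermediate cells 0 (0.676%) became 4 with DESeq2 (4.86%), 2 without a filter (1.69%), and 1 with thinned wells (1.40%), the Ncmap limit at 5 CPM (0.719%) or no cycling sums (1.94%). Between cycling and immature cells 1 (3.41%) became 8 with DESeq2 (11.9%), 4 without a filter (5.29%), and 2 with thinned wells (4.86%), the Ncmap limit at 5 CPM (3.46%), the Pmp22 limit at 40000 CPM (3.85%), library sizes only (3.69%) or upper-quartile scaling (3.65%), or without columns 8 and 16 (3.27%) or the top wells (3.29%). Over all genes DESeq2 called 1524, 927, 637 and 1564 genes in the 4 comparisons and edgeR 680, 250, 94 and 475, or 1063, 568, 278 and 873 without a filter. Without the cycling sums edgeR called 1187, 523 and 265 genes in the first 3, and with thinned wells 460 and 180 in the second and the third. The causes were not tested. The plate as a replicate block changed no call other than Sema6c. With 1 plate left out no count can be given, and the ratio in the other plate kept its sign for every named change (Sema5a 7.91 to 7.99 and Sema6c 4 to 5.36 on the log2 scale), with no test. Of 81 shares under another read limit or depth, 29 moved by more than the spread. Without the TMM factors the share of higher calls fell from 44.8% to 34.5% between intermediate and immature cells and from 43.6% to 20.7% between myelinating and intermediate cells.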
